A study of Mus musculus with 16 samples.

Results

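The 4 mouse Hox gene clusters were examined at single CpG sites in reduced representation bisulfite sequencing (RRBS) data, in which DNA is cut by a restriction enzyme, treated with bisulfite and sequenced, so that CpG-rich DNA is over-represented and unmethylated cytosines read as thymine. Members were the CpG sites inside fixed intervals around HoxA (chromosome 6, 115 kb), HoxB (chromosome 11, 185 kb), HoxC (chromosome 15, 130 kb) and HoxD (chromosome 2, 110 kb) of the mm9 genome, with both strands of a site summed, that had a value in all 16 libraries. There were 1199 such sites among 329078 in the whole series, with 350 in HoxA, 297 in HoxB, 217 in HoxC and 335 in HoxD. The rule itself uses positions and coverage. The study followed DNA methylation in E14 mouse embryonic stem cells (mESCs, strain 129/Ola), grown in serum with the cytokine LIF, when Wnt/β-catenin signalling was low, stabilised or depleted. There were 8 groups of 2 libraries. YP-mESCs were cells at a young passage (14) and OP-mESCs the same cells after prolonged culture (passage 70). OP-S33Y_1 and OP-S33Y_2 (O-S33Y # 1 and # 2 in the sample labels) were 2 clones made from YP-mESCs to overexpress the S33Y mutant of β-catenin, which escapes degradation, and then kept in the same prolonged culture as OP-mESCs, so a difference of either line is also the difference of that clone. mESC shCtrl and mESC shβcat #1 were YP-mESCs transduced with a lentiviral control hairpin or with 1 hairpin against β-catenin. EB shCtrl and EB shβcat #1 were embryoid bodies (EBs) made from those transduced cells by LIF withdrawal and taken at day 8 of differentiation. The study shows the depletion of β-catenin in the undifferentiated cells. It reports that EBs with a β-catenin hairpin began to disaggregate before that day and that these cells did not differentiate properly. For YP-mESCs, for OP-mESCs and for each clone the study calls its 2 libraries biological replicates, and no label says that the libraries of a group came from separate cultures, so p-values measure the spread between these libraries, which may be technical.

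Hox genes encode homeodomain transcription factors that give cells their position along the body axis. They lie in clusters in which the order of the genes on the chromosome follows the order of their expression from anterior (paralogue group 1) to posterior (paralogue group 13), and genes with the same number in different clusters are paralogues with related functions. In embryonic stem cells the clusters are silent, carry the bivalent chromatin of Polycomb and Trithorax targets, and sit in broad CpG-rich stretches with little DNA methylation. Wnt signalling is known to act on Hox genes during axis elongation, partly through the Cdx factors.

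A set of 4 stretches that carry main results is shown, each from 15 bases before its first measured CpG to 15 bases after its last, 5′ to 3′ on the strand of the named gene, from the mm9 reference. Capitals mark the CpG sites that had a value in all 16 libraries. Those of Hoxa4, Hoxc9 and Hoxd3 hold, for HoxA, HoxC and HoxD, the called window with the largest difference between EB shβcat and EB shCtrl. The last is from the start region of Hoxc4. The Hoxa4 stretch (chr6:52140415-52140649, minus strand, 15 measured CpGs) lies in the last coding exon, the one that encodes the homeodomain. The Hoxc9 stretch (chr15:102802939-102803010, plus strand, 5 measured CpGs) lies 4.5 kb upstream of the Hoxc9 start site in another annotated transcript, and the Hoxd3 stretch (chr2:74588004-74588136, plus strand, 10 measured CpGs) lies 10.4 kb downstream of the Hoxd3 start site, also in another transcript. The Hoxc4 stretch (chr15:102865386-102865468, plus strand, 6 measured CpGs) lies in the first coding exon.
Hoxa4: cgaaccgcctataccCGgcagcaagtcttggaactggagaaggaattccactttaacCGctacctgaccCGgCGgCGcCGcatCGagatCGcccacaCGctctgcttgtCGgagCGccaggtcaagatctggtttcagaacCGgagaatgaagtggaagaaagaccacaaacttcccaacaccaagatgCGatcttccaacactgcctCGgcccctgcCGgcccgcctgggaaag
Hoxc9: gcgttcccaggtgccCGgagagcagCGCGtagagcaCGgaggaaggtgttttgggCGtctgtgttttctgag
Hoxd3: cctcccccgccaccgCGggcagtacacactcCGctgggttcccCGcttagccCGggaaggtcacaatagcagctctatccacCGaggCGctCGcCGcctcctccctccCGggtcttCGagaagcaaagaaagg
Hoxc4: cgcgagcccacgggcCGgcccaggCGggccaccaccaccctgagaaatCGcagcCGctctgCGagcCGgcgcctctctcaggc

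The 1199 sites were 7.8% (HoxB) to 11.5% (HoxD) of the reference CpGs of each interval. Libraries held 18919219 to 40519010 reads on CpGs, and the median Hox site had 37 to 41 reads in a library, depending on the cluster. Of the Hox sites, 500 (41.7%) lay within 1 kb of the start site of a member gene. The member list held 38 genes, of which 27 had at least 5 such sites and were tested as start regions, 4 had 1 to 4 sites (Hoxb1, Hoxb3, Hoxb6 and Hoxd3) and 7 had none (Hoxa3, Hoxa9, Hoxb2, Hoxb4, Hoxb8, Hoxc10 and Hoxc12). The sites were also grouped into fixed 1 kb windows with at least 5 sites, which gave 86 Hox windows of 18547 in all. Windows and start regions were tested with edgeR's quasi-likelihood test on methylated and unmethylated reads of all libraries together, and are called changed at a Benjamini-Hochberg adjusted p under 0.05 over all windows or all 8827 start regions. Levels are means over CpGs, in percent, and differences are in percentage points. A level of a culture is an average over its cells, so a change in the share of methylated cells and a change within each cell cannot be told apart.

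The Hox clusters were sparsely methylated in stem cells, more methylated in EBs and most methylated in EBs made from cells with the β-catenin hairpin. The mean over the 1199 sites was 6.58% and 6.83% in the YP-mESC libraries, 4.6% and 4.9% in OP-mESCs, 6.9% and 6.7% in OP-S33Y_1, and 8.11% and 7.93% in OP-S33Y_2. OP-mESCs were the lowest of the 8 groups, and OP-S33Y_1 overlapped YP-mESCs. The mean was 9.77% and 9.98% in mESC shCtrl, 10.84% and 10.47% in mESC shβcat, 16.18% and 16.09% in EB shCtrl, and 19.92% and 20.47% in EB shβcat. The 4 groups from hairpin-transduced cells did not overlap with each other or with the other 4. Over all 329078 sites the group means were higher, from 21.09% in OP-mESCs to 31.44% in EB shCtrl, with 31.27% in EB shβcat.

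The difference between EB shβcat and EB shCtrl was 4.06 percentage points over the Hox sites and −0.17 over all sites. It was seen in every cluster. HoxA went from 12.48% ± 0.34 (SD, n = 2) to 16.19% ± 0.21 (SD, n = 2), HoxB from 21.38% ± 0.06 to 25.07% ± 1.14, HoxC from 17.21% ± 0.50 to 21.04% ± 0.23, and HoxD from 14.59% ± 0.52 to 19.5% ± 0.29. In each cluster both EB shβcat libraries lay above both EB shCtrl libraries. An exact two-sided permutation test of 2 libraries against 2 cannot give a p below 0.33, so single means are given without a test. HoxB was the most methylated cluster in all 8 groups, from 7.14% ± 0.36 in OP-mESCs to its level in EB shβcat, and HoxA the least, from 3.17% ± 0.25 in OP-mESCs.

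**Figure D1:**
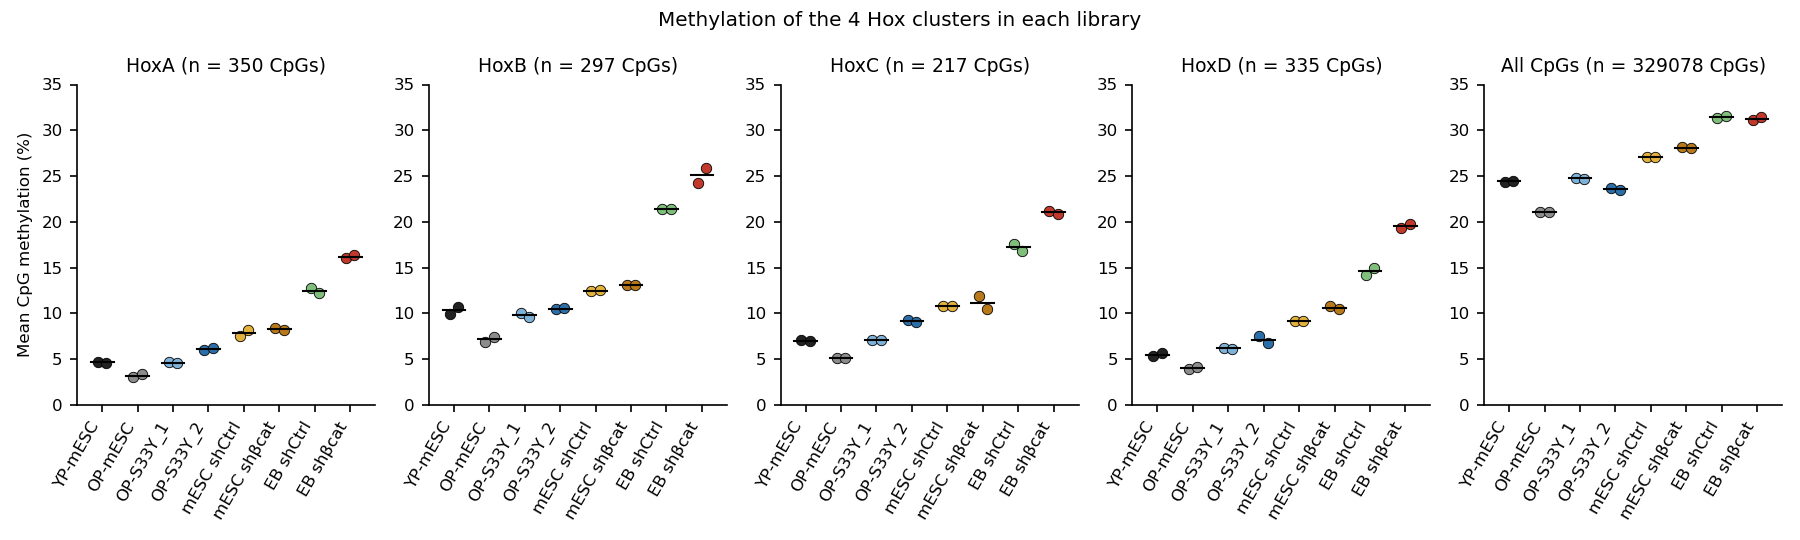
Mean CpG methylation (%) of the sites measured in all 16 libraries in HoxA, HoxB, HoxC, HoxD and over all CpGs, for the 8 groups on the x axis; each point is a library and each line the mean of its 2 libraries. In each Hox panel the 2 EB shβcat points lie above the EB shCtrl points, while over all CpGs the means of these groups are 31.27% and 31.44%.

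Most Hox sites in stem cells were close to unmethylated, and this share shrank in EBs. Sites under 5% made up 71.3% of the Hox sites in YP-mESCs, 79.1% in OP-mESCs, 63.4% in mESC shCtrl, 44.0% in EB shCtrl and 30.6% in EB shβcat. Sites over 20% made up 9.4% in YP-mESCs, 15.7% in mESC shCtrl, 26.9% in EB shCtrl and 35.4% in EB shβcat. The median Hox site was at 1.67%, 2.5%, 6.67% and 12.22% in these groups, in the same order. Across all sites the share under 5% moved less, from 62.2% in YP-mESCs and 58.6% in mESC shCtrl to 52.6% in EB shCtrl and 49.9% in EB shβcat.

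Levels differed widely between member genes (start region, 1 kb to each side of the start site). In YP-mESCs low start regions included those of posterior genes and of the central gene Hoxd8. Hoxd13, which patterns the digits, was at 0.52% and 0% over 14 CpGs, Hoxd8 at 0.39% and 0.72% over 38 CpGs, and Hoxc13, a regulator of hair formation, at 0.31% and 0% over 17 CpGs. The most methylated start regions were Hoxb13, the most posterior HoxB gene and known from the prostate, at 29.49% and 30.15% over 12 CpGs, and Hoxd12, a limb gene beside Hoxd13, at 21.81% and 21.98% over 13 CpGs. The neighbours Hoxd12 and Hoxd13 thus differed by over 20 points in every one of the 16 libraries except those of OP-mESCs, where Hoxd12 was at 16.09% and 13.6% and Hoxd13 at 0% and 0.11%. In HoxA the most methylated start region was Hoxa6, a thoracic gene, at 11.31% and 10.06% over 22 CpGs, and the least was Hoxa13, at 0.23% and 0.42% over 18 CpGs. In HoxC the most methylated was Hoxc6, the paralogue of Hoxa6, at 4.63% and 5.84% over 5 CpGs, and in HoxB the least was Hoxb9 at 0.65% and 0.46% over 21 CpGs.

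Of the single windows, the 5 with the highest mean over all libraries lay in HoxB, HoxC and HoxD. A window 4.7 kb upstream of Hoxc11 (chr15:102780001-102781000, 5 CpGs) averaged 67.84%, a HoxB window near Hoxb9 (chr11:96125001-96126000) 65.21%, an exon window of Hoxb13 (chr11:96056001-96057000) 64.69%, the Hoxd12 window (chr2:74513001-74514000) 36.32%, and a second window upstream of Hoxb9 (chr11:96121001-96122000) 34.3%. The 5 lowest, all below 1%, lay in Hoxd8 (0.41%), at Hoxd13 (0.5%), in Hoxa5 (0.79%), in an intron of Hoxa3 (0.87%) and in Hoxc9 (0.93%). In the Hoxa5 window no CpG exceeded 4.8% in any group mean.

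Differentiation raised methylation across all clusters. In EB shCtrl against mESC shCtrl, 47 of the 86 Hox windows rose and 0 fell, where 28.5% of all windows rose and 0.744% fell. Of the 77 Hox windows under 20% in YP-mESCs, 42 rose, against 24.7% of the 13786 such windows in all. The rise took in 18 of 24 HoxB windows, 11 of 22 in HoxC, 10 of 17 in HoxD and 8 of 23 in HoxA. The HoxA share was the lowest and the closest to that of all windows. Both EB libraries lay above both mESC libraries in 72 of the 86 Hox windows and in 50.8% of all windows. Of single CpGs, tested with a binomial model, 71 of 1199 rose by over 25 points and 0 fell, where 6.48% of all CpGs rose.

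The largest rises on differentiation were in HoxB and HoxC, outside start regions. The window upstream of Hoxb9 at chr11:96121001-96122000 (5 CpGs, inside another transcript) was at 20.53% and 27.73% in mESC shCtrl and at 67.81% and 70.26% in EB shCtrl, a rise of 44.9 points (edgeR, adjusted p = 5.5e-13). A window 6.8 kb downstream of the Hoxc4 start site (chr15:102871001-102872000, 7 CpGs) went from 18.82% and 18.15% to 58.92% and 60.66% (41.31 points, adjusted p = 6.2e-12). Next came the 3′ untranslated end of Hoxa5 (chr6:52150001-52151000, 28.62 points), an intron of Hoxc4 (chr15:102858001-102859000, 28.34 points), the last exon of Hoxb1 (27.6 points), Hoxd12 (26.37 points), a window 5.9 kb upstream of Hoxb4 (22.48 points) and one near Hoxb13 (chr11:96054001-96055000, 18.61 points). The groups did not overlap in the first 2 windows. The untranslated end of Hoxa5 contrasts with its start region, which was at 3.37% and 3.48% in mESC shCtrl and at 4.43% and 4.78% in EB shCtrl and did not pass the test.

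At start regions, 10 of the 27 tested members rose in EB shCtrl against mESC shCtrl, where 17.0% of all genes did, and 0 of 27 fell. These were Hoxa4, Hoxa6 and Hoxa10 in HoxA, Hoxb5 and Hoxb9 in HoxB, Hoxc6 and Hoxc11 in HoxC, and Hoxd1, Hoxd4 and Hoxd12 in HoxD. Hoxd12 went from 31.79% and 32.96% to 58.25% and 58.13% (25.82 points, adjusted p = 6e-07). Hoxc6 went from 14.44% and 14.53% to 34.06% and 27.04% (16.06 points, adjusted p = 0.0025), and Hoxa6 from 24.35% and 26.95% to 38.98% and 33.87% (10.78 points, adjusted p = 0.013). The EB libraries lay above the mESC libraries in all 3 genes, although the EB shCtrl libraries of Hoxc6 were 7 points apart. Smaller rises were those of Hoxd4, an anterior gene of the hindbrain and neck (8.02 points, adjusted p = 0.0099), Hoxd1 (4.61, adjusted p = 3.6e-06), Hoxc11 (4.34, adjusted p = 4.6e-05), Hoxa10 (3.55, adjusted p = 0.0026), Hoxb5 (2.61, adjusted p = 0.021), Hoxb9 (2.32, adjusted p = 0.035) and Hoxa4 (1.55, adjusted p = 0.043).

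EB shβcat against mESC shβcat shares no library with that comparison and gave more calls. Here 67 of 86 Hox windows rose and 0 fell, where 34.8% of all windows rose and 7.15% fell, and of the 77 windows under 20% in YP-mESCs 62 rose, where 36.4% of all such windows did. Of CpGs, 112 of 1199 rose by over 25 points, against 6.53% of all. Start regions rose at 21 of the 27 tested members, against 27.0% of all genes. The 6 tested members without a rise here were Hoxa5, Hoxa7 and Hoxa13 in HoxA, Hoxc13, and Hoxd8 and Hoxd9. The rises ran from 1.52 points at Hoxd13 (adjusted p = 0.015) to 26.95 at Hoxd12 (adjusted p = 1.6e-07), with 16.31 at Hoxc9 (adjusted p = 3e-07), 13.37 at Hoxb13 (adjusted p = 0.00072), 11.32 at Hoxc8 (adjusted p = 5.3e-05) and 10.74 at Hoxc11 (adjusted p = 5.1e-10). Whether the rise differed between the 2 series is the interaction given with the stem cell comparison.

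In EBs, the β-catenin hairpin was accompanied by a called rise at part of the Hox windows and a called fall at none. In EB shβcat against EB shCtrl 27 of the 86 Hox windows rose and 0 fell, where 5.95% of all windows rose and 2.29% fell. All 27 were among the 77 Hox windows under 20% in YP-mESCs, a class of which 7.52% rose over the genome. They were 9 of 23 in HoxA, 7 of 24 in HoxB, 8 of 22 in HoxC and 3 of 17 in HoxD. The difference was above 0 in 78 of the 86 windows with a median of 4.06 points, where the median of all windows was 0.16. Both EB shβcat libraries lay above both EB shCtrl libraries in 59 of the 86, and in 30.9% of all windows. They lay below both in 4 of the 86, and in 18.8% of all windows. Of CpGs, 1 of 1199 rose by over 25 points and 0 fell, where 0.0933% of all CpGs rose. The window calls depended on the fit. With the 4 EB libraries fitted alone on the same CpGs, an alternative chosen after seeing the data, 17 Hox windows were called, and with those libraries alone on all CpGs that they share (38358 windows, 151 of them Hox) edgeR called 0 Hox windows and 0.175% of all. In that last fit the smallest adjusted p of a Hox window was 0.054, 60 Hox windows were higher and 1 lower at an unadjusted p under 0.05 where 8.87% and 9.43% of all windows were, 133 of 151 differences were above 0, and the median was 4.32 against 0.0 over all windows. The count of 27 also dropped when EB shCtrl replicate 2 was left out, and the share of all windows in that fit is not given.

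Among called windows, the last coding exon of Hoxb1, which marks a segment of the hindbrain, had the largest difference. Its 12 measured CpGs averaged 43.04% and 45.77% in EB shCtrl and 67.78% and 66.59% in EB shβcat, a rise of 22.78 points (adjusted p = 0.00088). Each of the 12 CpGs was higher in EB shβcat, by 4.6 to 37.0 points. In stem cells the same stretch was at 11.98% and 21.62% in YP-mESCs, 5.2% and 5.56% in OP-mESCs, 8.84% and 6.07% in OP-S33Y_1, 13.28% and 12.84% in OP-S33Y_2, 17.74% and 15.87% in mESC shCtrl and 22.6% and 28.67% in mESC shβcat. The EB shβcat libraries were thus the highest of the 16 and the OP-mESC libraries the lowest. Neighbouring CpGs share reads and are not replicates. Stretches picked for a called difference are bound to hold mostly CpGs that go the same way. Differences by CpG, here and below, thus describe a stretch and add no support to its call.

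In HoxA the largest difference of a called window was also in the last coding exon, that of Hoxa4, a gene of the neck region. Its 15 CpGs averaged 29.45% and 21.29% in EB shCtrl and 36.69% and 36.86% in EB shβcat (11.4 points, adjusted p = 0.046). All 12 stem cell libraries were between 0.92% and 8.55% there. The groups did not overlap, but the EB shCtrl libraries were 8 points apart, only 13 of the 15 CpGs were higher in EB shβcat, and without EB shCtrl replicate 2 the adjusted p was 0.44. The start region of Hoxa4 (30 CpGs) was far lower, at 2.45% and 2.42% in EB shCtrl and 6.16% and 6.07% in EB shβcat (3.69 points, adjusted p = 0.0032), with 0.41% and 0.82% in YP-mESCs.

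The largest difference of a called HoxC window was upstream of Hoxc9, a thoracic gene. Its 5 CpGs averaged 13.84% and 22.13% in EB shCtrl and 36.71% and 31.55% in EB shβcat (16.14 points, adjusted p = 0.0077). The EB shCtrl libraries were 8 points apart, and the call was lost without EB shCtrl replicate 1 or EB shβcat replicate 1. By CpG, the EB shβcat means were higher by 8.6 to 22.5 points. The largest difference of a called HoxD window was downstream of Hoxd3, an anterior gene of the neck vertebrae. Its 10 CpGs averaged 4.49% and 5.52% in EB shCtrl and 15.52% and 15.16% in EB shβcat (10.33 points, adjusted p = 8.1e-05), and all 12 stem cell libraries were between 0.21% and 2.32%. In each of its 10 CpGs the EB shβcat mean was the higher, by 1.0 to 17.6 points.

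Other called windows with large differences lay in introns, untranslated ends and between genes. In an intergenic HoxB window 20.5 kb upstream of Hoxb9 (chr11:96112001-96113000, 6 CpGs) EB shCtrl was at 10.43% and 11.12% and EB shβcat at 25.08% and 23.85% (13.69 points, adjusted p = 0.0004), with at most 5.33% in any stem cell library. The 3′ untranslated end of Hoxb2, a hindbrain gene (chr11:96216001-96217000, 6 CpGs), went from 14.48% and 12.74% to 24.82% and 24.41% (11.01 points, adjusted p = 0.018), a call that was lost when any 1 of the 4 EB libraries was left out (adjusted p at most 0.15). An intron of Hoxa9 (chr6:52180001-52181000, 6 CpGs) went from 2.08% and 2.99% to 16.2% and 10.6% (10.86 points, adjusted p = 8.2e-05). In these 3 windows the EB groups did not overlap, and the Hoxa9 window was at 1.49% and 1.39% in mESC shCtrl. An intron window of Hoxa10 (chr6:52183001-52184000, 12 CpGs), a gene known from the lumbar spine and the uterus, went from 9.28% ± 2.43 (SD, n = 2) to 19.9% ± 1.31 (10.62 points, adjusted p = 0.002), and lost the call without EB shCtrl replicate 2. The remaining called windows had differences of 2.94 to 9.79 points, with the smallest at Hoxd11.

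**Figure D2:**
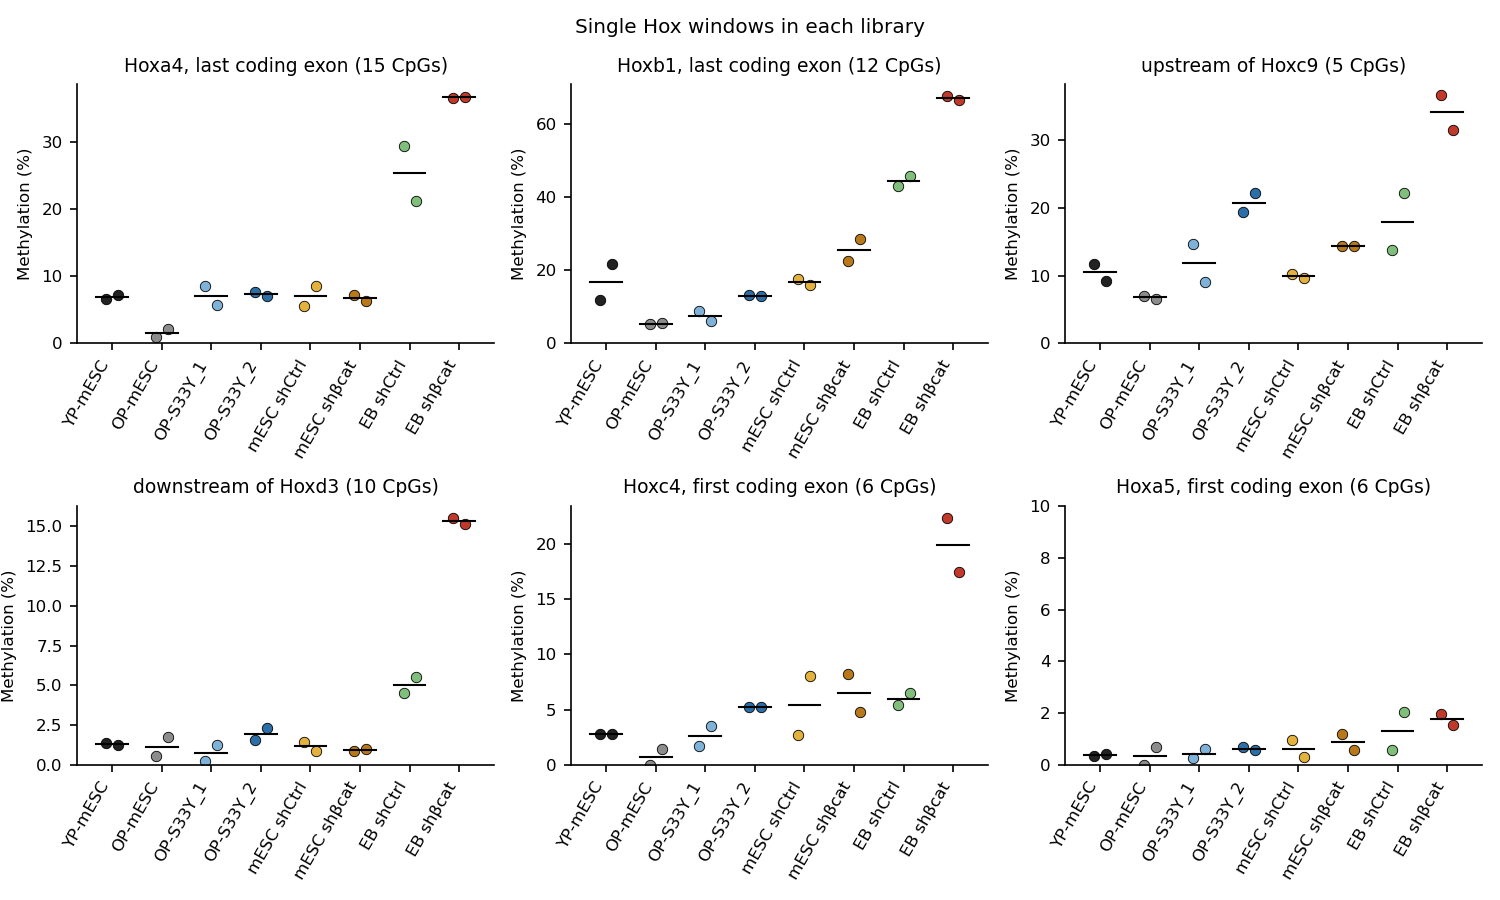
Mean CpG methylation (%) in each of the 16 libraries for 6 single 1 kb windows, in Hoxa4, Hoxb1, Hoxc4 and Hoxa5, upstream of Hoxc9 and downstream of Hoxd3; points are libraries, in the 8 groups on the x axis. In the Hoxb1 window the EB shβcat points (67.78% and 66.59%) lie above the EB shCtrl points (43.04% and 45.77%), and in the Hoxa5 window all groups stay near 0.

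At start regions 5 of the 27 tested members rose in EB shβcat against EB shCtrl, where 3.44% of all genes did, and 0 of 27 fell. Hoxc4, which acts in the neck region, was at 5.38% and 6.47% in EB shCtrl and 22.33% and 17.47% in EB shβcat over 6 CpGs (13.97 points, adjusted p = 0.0012). Hoxc11, a gene of the lumbosacral region, was at 7.66% and 6.74% and at 14.56% and 13.36% over 18 CpGs (6.76 points, adjusted p = 0.018). The EB groups of both genes did not overlap, and each of the 6 CpGs of Hoxc4 was higher in EB shβcat, by 7.1 to 19.0 points. The paralogues Hoxa11 and Hoxd11, which shape the forearm and the kidney, rose from 9.66% and 9.01% to 13.14% and 17.24% over 14 CpGs (5.85 points, adjusted p = 0.024) and from 1.58% and 2.22% to 4.54% and 5.38% over 32 CpGs (3.06 points, adjusted p = 0.0087). Together with Hoxc11 all 3 tested genes of paralogue group 11 were called. With Hoxa4 the called genes fell into paralogue groups 4 and 11, although Hoxd4, also of group 4, was tested and did not pass. Leaving out 1 EB library at a time kept Hoxc4 called (adjusted p at most 0.036). The others lost the call in at least 1 such fit, with a highest adjusted p of 0.058 for Hoxa4 (without EB shCtrl replicate 1), 0.16 for Hoxd11 (without EB shCtrl replicate 1), 0.28 for Hoxc11 (without EB shCtrl replicate 2) and 0.31 for Hoxa11 (without EB shβcat replicate 2).

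Of the 22 tested members that did not pass, 19 had a higher mean in EB shβcat. Hoxc9 (9.47 points, adjusted p = 0.06), Hoxd4 (8.82 points, adjusted p = 0.3) and Hoxc8 (7.0 points, adjusted p = 0.081) had the largest of these differences. Hoxd4 was at 17.36% and 20.21% in EB shCtrl and at 28.06% and 27.14% in EB shβcat, without overlap. Hoxc6 went the other way, with 34.06% and 27.04% in EB shCtrl and 23.74% and 23.41% in EB shβcat, and did not pass the test (−6.98 points, adjusted p = 0.42). Of windows, 8 of 86 had a lower mean in EB shβcat, and the largest of these differences, upstream of Hoxb4 (chr11:96172001-96173000), was 36.08% and 31.77% in EB shCtrl against 16.12% and 25.81% in EB shβcat and did not pass (−12.96 points, adjusted p = 0.11). Hoxd12 (60.1% and 66.62% in EB shβcat), Hoxb13 (47.32% and 52.23%) and Hoxa6 (36.56% and 41.51%), the most methylated members, had EB shβcat libraries within 10 points of those of EB shCtrl and did not pass. The members with 1 to 4 CpGs were not tested. Of these Hoxd3 was at 44.95% and 58.08% in EB shCtrl and 62.72% and 64.74% in EB shβcat over 4 CpGs, and Hoxb3 at 36.1% and 37.2% and at 40.89% and 46.0% over 4 CpGs.

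**Figure D3:**
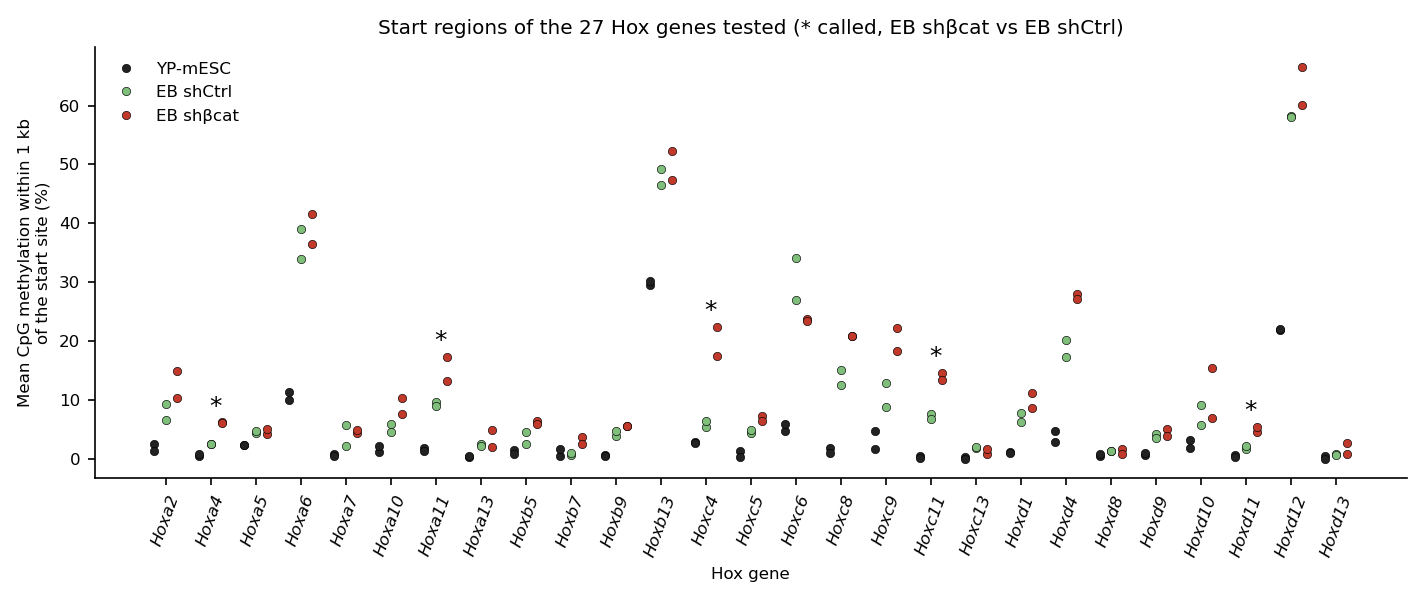
Mean CpG methylation (%) within 1 kb of the start site for the 27 member genes with at least 5 CpGs, one column a gene, with a point for each library of YP-mESC, EB shCtrl and EB shβcat; an asterisk marks a gene called in EB shβcat against EB shCtrl. Called genes are Hoxa4, Hoxa11, Hoxc4, Hoxc11 and Hoxd11, and Hoxd12, at 58.25% and 58.13% in EB shCtrl, is the highest.

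By paralogue group, the sites within 1 kb of a start site fell into levels that did not follow the order of the groups. Paralogue group 12, here Hoxd12 alone, had 21.9% in YP-mESCs, 58.19% in EB shCtrl and 63.36% in EB shβcat, while group 13 had 6.06%, 10.78% and 11.53%, and group 11 had 0.68%, 5.02% and 9.73%. The largest difference between EB shβcat and EB shCtrl was in group 3 (9.51 points), which rests on the few CpGs of Hoxb3 and Hoxd3, followed by group 4 (6.31 points), group 12 (5.17 points), group 2 (4.72 points) and group 11 (4.71 points). It was smallest in groups 13 (0.75 points), 5 (0.76 points) and 6 (0.78 points). Over sectors, the difference was 5.37 points for the anterior genes (105 CpGs), 1.17 points for the central genes (171 CpGs) and 2.71 points for the posterior genes (224 CpGs). Called windows were 10 of 25 nearest to anterior, 3 of 21 nearest to central and 14 of 40 nearest to posterior genes.

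**Figure D4:**
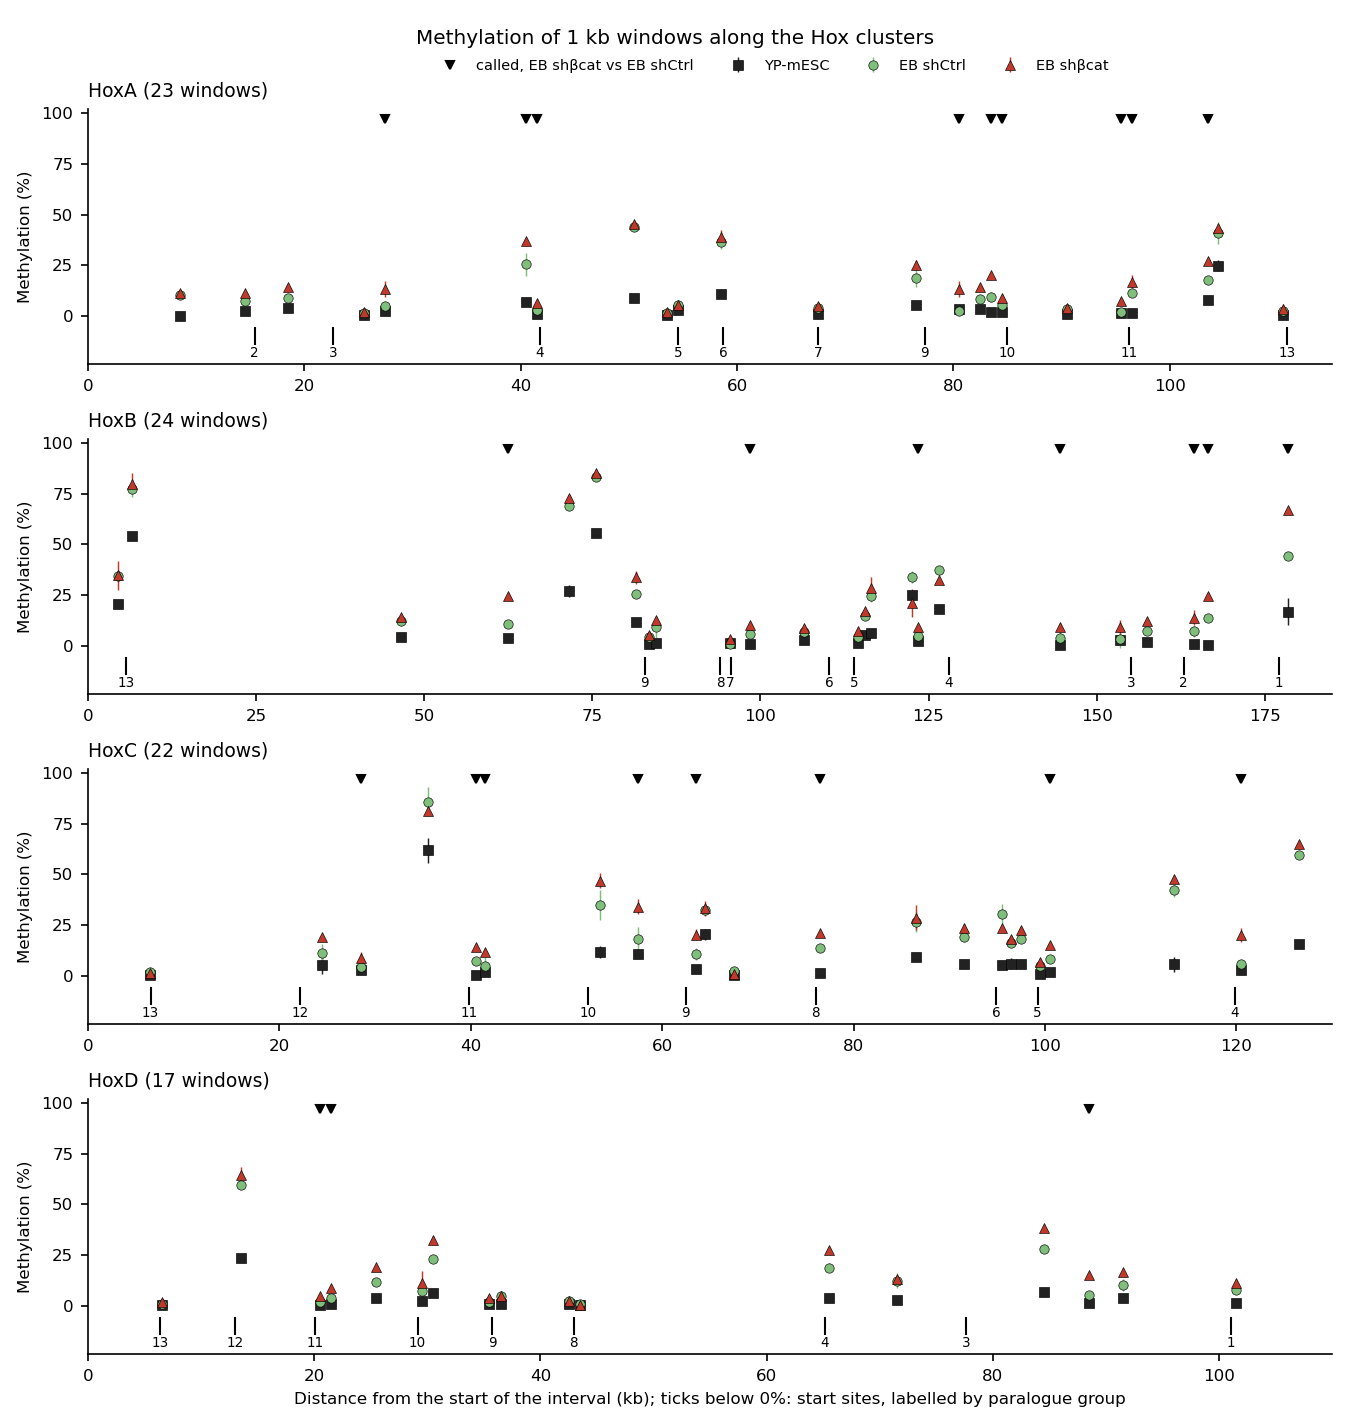
Mean CpG methylation (%) of the 86 Hox windows against distance from the start of each interval (kb) in HoxA, HoxB, HoxC and HoxD, for YP-mESC (squares), EB shCtrl (circles) and EB shβcat (triangles), as means of 2 libraries with SD bars; black triangles at the top mark the 27 windows called in EB shβcat against EB shCtrl and ticks under 0 mark start sites by paralogue group. Called windows are found in all clusters, with 9 in HoxA, 7 in HoxB, 8 in HoxC and 3 in HoxD.

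CpGs in the exon that encodes the homeodomain had higher mean levels than those in first exons, an order that turned among sites of lower CpG density. In 37 of the 38 members the transcript model has 2 coding exons, and in all 38 the recognition helix of the homeodomain is encoded by the last. The 373 CpGs in first coding exons averaged 2.94% ± 0.03 (SD, n = 2) in YP-mESCs, 9.44% ± 0.14 in EB shCtrl and 11.89% ± 0.53 in EB shβcat. The 127 CpGs in last coding exons averaged 7.56% ± 0.78, 23.45% ± 1.04 and 32.51% ± 0.92 in the same groups. The difference between EB shβcat and EB shCtrl was thus 9.06 points in last exons and 2.45 points in first exons, and in both classes the EB shβcat libraries lay above the EB shCtrl libraries. Levels follow local CpG density, so the classes were also compared at like density. With at most 34 CpGs within 250 bp of the site the differences were 9.95 points (last) and 3.27 points (first), and with 35 or more they were 7.73 and 2.33 points. The levels themselves were not ordered in 1 way. With at most 34 CpGs, first exons (48 sites in 10 genes) were the higher, at 16.22%, 39.86% and 43.13% in YP-mESCs, EB shCtrl and EB shβcat against 11.12%, 29.58% and 39.53% in last exons (76 sites in 13 genes). With 35 or more, last exons were the higher, at 2.25%, 14.31% and 22.04% against 0.98%, 4.95% and 7.28%, but that class of last exons rests on 51 sites in 3 genes. Of the 13 genes with at least 3 CpGs in the last exon, all 13 were higher in EB shβcat. The differences ran from 2.86 points at Hoxc8 to 22.78 at Hoxb1. The EB groups did not overlap in any of them, though by little at Hoxc6 and Hoxd9, each with 4 CpGs. There the highest EB shCtrl and lowest EB shβcat libraries were at 16.07% and 16.13%, and at 10.22% and 10.24%. In first exons 21 of 27 genes were higher and 15 had no overlap. Exons of genes outside the Hox clusters were not counted, so no share over all genes can be set beside these counts. Within the 10 genes measured in both exons the means were 9.17 and 3.72 points, and the last exon had the larger difference in 6. Hoxd3, with 29 CpGs in its last exon, was at 28.82% and 26.98% in EB shCtrl and at 38.53% and 38.1% in EB shβcat. Sites in 1 exon share reads and sequence, and no test was made of the difference between exon classes.

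Sites close to a start site and in CpG-dense sequence had the lowest levels. Within 250 bp of a start site (113 CpGs) the mean was 2.28% in YP-mESCs, 8.56% in EB shCtrl and 11.15% in EB shβcat, and beyond 1 kb but within 2 kb (263 CpGs) it was 9.71%, 21.01% and 26.36%. Where 35 or more CpGs lay within 250 bp (642 sites) it was 1.49%, 6.07% and 9.07%, and where 14 or fewer did (68 sites) 24.71%, 38.52% and 42.33%. The difference between EB shβcat and EB shCtrl was largest at intermediate density, where 25 to 34 CpGs (222 sites) gave 19.87% and 26.41%. Intergenic sites (163) differed least, with 25.47% and 27.59%, against 12.87% and 16.98% at the 508 coding sites and 15.46% and 20.52% at the 260 intronic sites. Downstream of a start site, up to 2 kb, the difference was 4.01 points over 635 sites, and upstream 1.79 points over 128 sites.

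**Figure D5:**
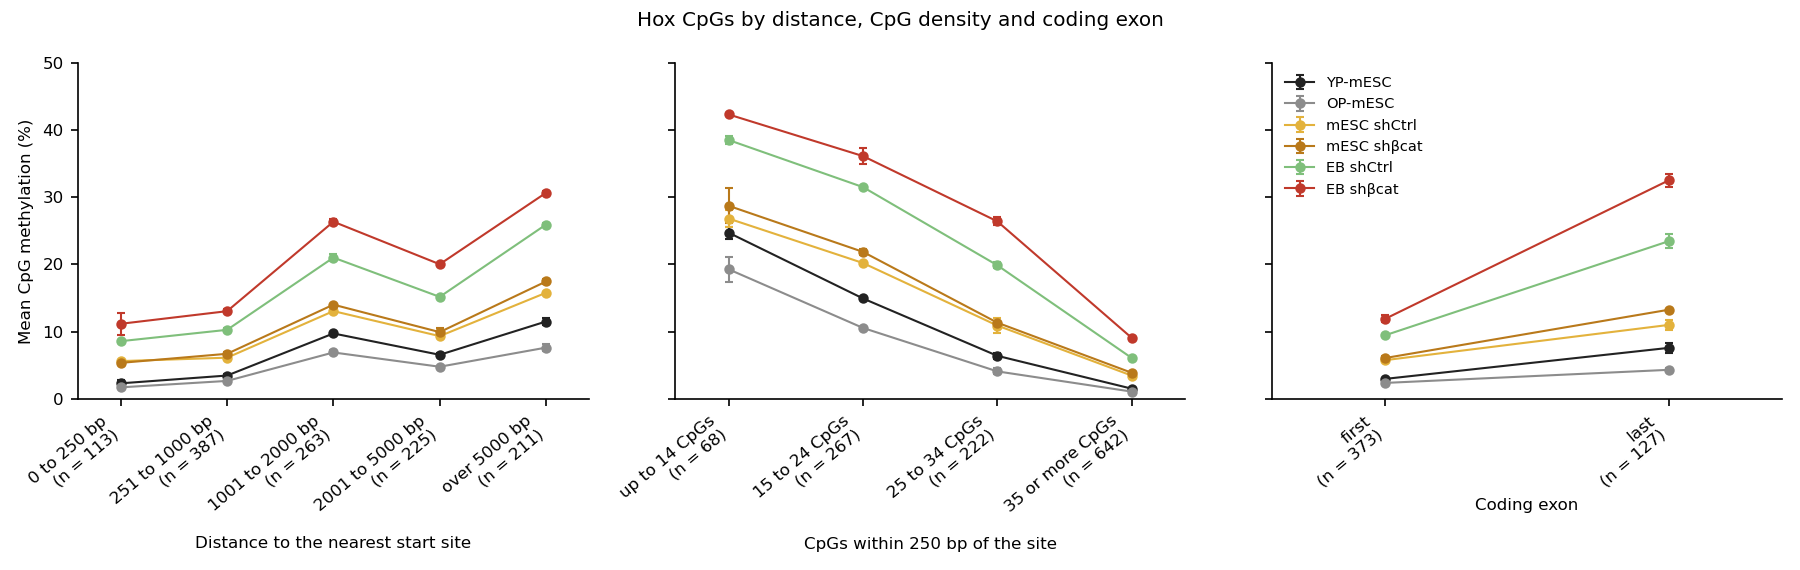
Mean methylation (%) of Hox CpGs by distance to the nearest member start site, by the number of CpGs within 250 bp and by first or last coding exon, for 6 groups, as means of 2 libraries with SD bars. In last coding exons EB shCtrl is at 23.45% and EB shβcat at 32.51%, against 9.44% and 11.89% in first coding exons.

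Prolonged culture was accompanied by lower Hox methylation, mostly at windows away from start sites. In OP-mESCs against YP-mESCs 11 of the 86 Hox windows fell and 2 rose, where 17.2% of all windows fell and 0.739% rose. The share that fell was thus below that of all windows, but among windows under 20% in YP-mESCs the shares were close. There 8 of 77 Hox windows fell and 2 rose, where 1574 of all 13786 fell and 88 rose. The mean over the Hox sites was lower by 1.95 points and over all sites by 3.31 points. The difference was above 0 in 16 of 86 windows and the median was −0.7 points, against −0.22 over all windows. Of CpGs, 6 of 1199 fell by over 25 points and 0 rose, where 2.46% of all CpGs fell. The window upstream of Hoxc11 at chr15:102780001-102781000, at 57.71% and 66.43% in YP-mESCs and 30.98% and 31.38% in OP-mESCs, changed most (−30.89 points, adjusted p = 0.0009). The window upstream of Hoxb9 at chr11:96121001-96122000 went from 25.13% and 29.29% to 6.58% and 11.29% (−18.28 points, adjusted p = 2.4e-05), and the one upstream of Hoxb4 (chr11:96172001-96173000, 8 CpGs) from 25.06% and 25.24% to 10.81% and 9.67% (−14.91 points, adjusted p = 0.00014). The groups did not overlap in any of the 3. The last exons of Hoxb1 (−11.42 points, adjusted p = 5.8e-05) and Hoxa4 (−5.43 points, adjusted p = 7.5e-05) and the window downstream of the Hoxc4 start site (−10.95 points, adjusted p = 7.3e-05) also fell, and each of these 3 windows rose in EB shCtrl against mESC shCtrl. Smaller falls were those of an intergenic window near Hoxa11 (chr6:52203001-52204000, −4.04 points, adjusted p = 0.0019) and of the intergenic window 20.5 kb upstream of Hoxb9 (−3.4 points, adjusted p = 0.00041), while an intron window of Hoxb3 (chr11:96194001-96195000) rose by 1.37 points (adjusted p = 0.044). Start regions of 0 of the 27 members rose or fell by edgeR's test, where 0.408% of all genes rose and 8.01% fell. At an unadjusted p under 0.05 there were 5 of 27 members and 1653 of all 8827 genes.

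The S33Y clones had Hox levels at or above those of OP-mESCs. Taking both clones together against OP-mESCs, 30 of the 86 Hox windows rose and 0 fell, where 19.6% of all windows rose and 0.793% fell. The count was 16 without OP-mESC replicate 1 and 12 without OP-mESC replicate 2. The share of all windows that rose in those fits is not given. With all libraries, the difference was above 0 in 82 of 86 Hox windows with a median of 1.64 points, against 0.3 over all windows. The window upstream of Hoxc11 was at 66.2% and 65.78% in OP-S33Y_1 and 54.22% and 66.59% in OP-S33Y_2 (32.02 points above OP-mESCs, adjusted p = 3.8e-05). An exon window of Hoxb13 rose by 16.38 points (adjusted p = 0.0046), the window upstream of Hoxb9 by 12.54 (adjusted p = 0.00074) and the Hoxd12 window by 10.3 (adjusted p = 0.0057). Rises also took in an intergenic window near Hoxa13 (chr6:52204001-52205000, 9.63 points, adjusted p = 0.015), the stretch upstream of Hoxc9 (9.52 points, adjusted p = 0.0006), an intergenic window near Hoxb9 (chr11:96131001-96132000, 7.26 points, adjusted p = 0.0034) and the last exon of Hoxa4 (5.74 points, adjusted p = 6.2e-06). Of start regions, 4 of 27 rose, where 8.66% of all genes did. These were Hoxd12 (10.37 points, adjusted p = 0.015), Hoxa6 (5.73 points, adjusted p = 5.4e-05), Hoxc4 (3.22 points, adjusted p = 0.029) and Hoxd1 (1.44 points, adjusted p = 0.0043).

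Against YP-mESCs, which are the control of the passage comparison too, few Hox windows were called in either clone, but OP-S33Y_2 had mostly higher means. The mean over the Hox sites was 0.1 points higher in OP-S33Y_1 and 1.32 points higher in OP-S33Y_2, where over all sites it was 0.33 points higher and 0.84 points lower. In OP-S33Y_1 1 Hox window rose and 3 fell, where 2.24% of all windows rose and 3.49% fell. In OP-S33Y_2 6 rose and 2 fell, where 2.0% rose and 5.34% fell, and 74 of 86 differences were above 0 with a median of 1.0 point, against 0.08 over all windows. Both OP-S33Y_2 libraries lay above both YP-mESC libraries in 51 of 86 Hox windows and in 25.3% of all windows. A window in an intron of Hoxc10, a lumbar gene (chr15:102798001-102799000), was the largest rise in OP-S33Y_2 (13.96 points, adjusted p = 0.0032), followed by the stretch upstream of Hoxc9 (10.32 points, adjusted p = 0.045), at 19.38% and 22.18% in OP-S33Y_2 and 11.72% and 9.19% in YP-mESCs. Smaller rises were at Hoxc6 (chr15:102841001-102842000, 8.39 points, adjusted p = 0.00067) and in introns of Hoxb6 (4.55 points, adjusted p = 0.013) and Hoxb3 (1.69 points, adjusted p = 0.018), and at Hoxb7 (1.13 points, adjusted p = 0.011). The largest fall there was near Hoxb9 (chr11:96125001-96126000, −18.75 points, adjusted p = 0.0024). In OP-S33Y_1 the window upstream of Hoxb4 (−13.06 points) and the last exon of Hoxb1 (−9.35 points) were below YP-mESCs (adjusted p = 0.014 and 0.0051), at 10.24% and 13.94% upstream of Hoxb4 where OP-mESCs were at 10.81% and 9.67%. The third fall was 20.5 kb upstream of Hoxb9 (−3.41 points, adjusted p = 0.0011) and the 1 rise was in the Hoxc10 intron (10.32 points, adjusted p = 0.02). Start regions gave 0 calls among 27 in either clone by edgeR's test. Of all genes 0.714% rose and 1.52% fell in OP-S33Y_1, and 1.02% rose and 1.65% fell in OP-S33Y_2. At an unadjusted p under 0.05 there were 2 members and 980 of 8827 genes in OP-S33Y_1, and 9 members and 1262 genes in OP-S33Y_2.

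In stem cells, depletion of β-catenin was not accompanied by a detected Hox change. In mESC shβcat against mESC shCtrl edgeR called 0 of 86 Hox windows, where 0.151% of all windows rose and 0.0431% fell. At an unadjusted p under 0.05 there were 9 Hox windows and 1473 of all 18547, a binomial model with a shared overdispersion called 3 Hox windows and 2.18% of all, and the median difference was 0.29 points against 0.15 over all windows. Start regions gave 0 calls by edgeR's test, with 3 of 27 members and 449 of 8827 genes at an unadjusted p under 0.05. The Hoxb1 exon, at 17.74% and 15.87% in mESC shCtrl and 22.6% and 28.67% in mESC shβcat, was among the windows that did not pass. The difference between the EB and the stem cell effect of the hairpin was tested itself as an interaction. It gave 0 of 86 Hox windows by edgeR, where 0.21% of all windows were higher and 0.404% lower, with 12 Hox windows and 2454 of all 18547 at an unadjusted p under 0.05, 69 of 86 Hox differences above 0 and a median of 3.6 points against 0.09. The binomial model was not run on it. Start regions gave 0 calls for the interaction by edgeR among the 27 members and 0 among all 8827 genes. At an unadjusted p under 0.05 there were 4 members and 603 genes. For no single Hox window or start region was the effect of the hairpin thus shown to differ between EBs and stem cells. For start regions the same held over all genes.

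mESC shCtrl and YP-mESCs are both control cultures, and they differed over the whole genome. Of the Hox windows 33 of 86 rose in mESC shCtrl and 2 fell, where 42.6% of all windows rose and 3.15% fell, and of the 77 under 20% in YP-mESCs 30 rose, where 45.0% of all such windows did. Start regions rose at 16 of 27 members, where 52.8% of all genes did, and 40 of 1199 CpGs rose by over 25 points, where 3.01% of all did. The Hox share was near or below that of all windows. Among members the largest rises were at Hoxa6 (14.96 points, adjusted p = 1.1e-06), Hoxd12 (10.48, adjusted p = 0.012), Hoxc6 (9.25, adjusted p = 0.00027), Hoxb13 (8.7, adjusted p = 0.031) and Hoxc8 (7.72, adjusted p = 2.9e-08). The others were Hoxd4 (6.98 points), Hoxa11 (5.58), Hoxa2, Hoxc5, Hoxc11 (2.52), Hoxa7, Hoxd9, Hoxa13, Hoxb9 (1.43), Hoxc13 and Hoxd11 (0.83). The control hairpin and whatever else differed between these cultures cannot be told apart, and EBs were therefore tested against transduced stem cells only. Where EB levels are printed beside those of YP-mESCs, the gap also holds this difference between control cultures.

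The start regions of Hoxa5 and Hoxd8 passed in none of the 10 comparisons. Hoxa5, which acts in the lung and the thorax, had 43 CpGs, the most of any member, and lay between 1.66% and 5.06% in all 16 libraries. Hoxd8 had 38 CpGs and lay between 0.14% and 1.62%. Hoxa7, Hoxa13, Hoxc13 and Hoxd9 passed in mESC shCtrl against YP-mESCs alone, with differences of 1.4 to 1.85 points. Hoxa2, the anterior end of the tested HoxA genes and known from the second pharyngeal arch, rose in mESC shCtrl against YP-mESCs (4.84 points, adjusted p = 0.0011) and in EB shβcat against mESC shβcat (8.97 points, adjusted p = 0.00017). Hoxb7 (2.97 points, adjusted p = 0.00099), Hoxd10 (6.75 points, adjusted p = 0.0003) and Hoxd13 (1.52 points, adjusted p = 0.015) passed in the last of these comparisons alone, and Hoxc5 (4.03 points, adjusted p = 0.011) passed there and in mESC shCtrl against YP-mESCs.

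Genes that act with the Hox genes were examined at their start regions. Evx1, the homeobox gene beyond the posterior end of HoxA, was at 10.66% and 7.23% in EB shCtrl and 24.67% and 20.68% in EB shβcat over 12 CpGs, with 1.1% and 2.94% in YP-mESCs (13.73 points, adjusted p = 0.00056), and at an adjusted p of 0.07 without EB shCtrl replicate 2. Of the Cdx genes, caudal-type activators of Hox transcription, Cdx2 rose from 1.68% and 1.97% to 4.27% and 5.18% over 19 CpGs (2.9 points, adjusted p = 0.029). Cdx1 was at 16.25% and 16.89% in EB shCtrl and 27.81% and 24.16% in EB shβcat over 15 CpGs and did not pass (9.41 points, adjusted p = 0.064), while it rose in EB shCtrl against mESC shCtrl (9.34 points, adjusted p = 0.00037). The EB groups did not overlap in any of these 3 genes. Of the Hox cofactors Pbx2, Pbx3, Meis1, Meis2, Meis3, Pknox1 and Pknox2, which bind DNA together with Hox proteins, 0 of 7 passed in EB shβcat against EB shCtrl and none exceeded 6.86% in any library. The Polycomb genes Ezh2, Eed and Suz12 gave 0 of 3 there. In mESC shCtrl against YP-mESCs 5 of the 7 cofactors, all 3 Polycomb genes, Evx1 and Cdx1 rose, where 52.8% of all genes did. Meis1 also rose in OP-S33Y_2 against YP-mESCs (2.66 points, edgeR, adjusted p = 0.03), where 1.02% of all genes did. Evx2 had too few CpGs to test, and Pbx4, Cdx4 and Jarid2 had none. Kmt2a was not found under that name in the annotation, so its CpGs were not counted.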

How the data were processed

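DNA methylation was measured by RRBS in 16 libraries, 2 for each of 8 groups. According to the labels, libraries were made from 100 to 200 ng of DNA, and both an Ultralow Methyl-Seq and an RRBS kit of the NuGEN Ovation line are named. Per the submitters' processing notes and the study's methods, the authors used CASAVA 1.8.2, Trim Galore 0.2.8 and Bismark 0.7.9 on mm9. The files hold cytosines with at least 10 reads. The enzyme and the handling of duplicate reads are not given in the sources used here. Each deposited file lists cytosines of CpGs with the count of reads covering them and the percent of these reads that were methylated or not. Methylated reads were recovered from both columns here, and no column (0) belonged to another sample. YP-mESC replicate 2 has no values on 1 chromosome, which carries no Hox cluster.

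Both strands of a CpG were summed and CpGs with a value in all 16 libraries kept. Positions were checked against the mm9 reference (100.0% were CG), and windows, start regions and exons were taken from its annotation. The level of a region is the mean over its CpGs. Windows and start regions were fitted with edgeR 4.0.16 in R 4.3.3 (library and methylation-state terms, quasi-likelihood, 8 residual degrees of freedom), in 1 fit over all 16 libraries. Single CpGs were tested over the compared libraries with a binomial model whose overdispersion was shared by all CpGs (chi-square test, adjusted over all CpGs), and a call also needed a difference over 25 points. All else was computed in Python 3.11.15 (scipy 1.17.1, pandas 2.3.3, numpy 2.4.6) and drawn with matplotlib 3.10.9. The fit was tested on simulated data. Between replicates, Pearson's r over the Hox CpGs was 0.867 to 0.936 across sites, and mitochondrial CpGs, which lack methylation, read 0.24% to 0.45%. Intervals for single counts are not given, since PCR duplicates cannot be removed.

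The members and lists were chosen with earlier results of these data known. Named with values were every member with a called start region, the 8 called windows with the largest difference in each comparison and direction, the 5 highest and 5 lowest windows and the extreme members of each cluster. The Hoxd3 window was named after its values were seen, as the called window of HoxD with the largest difference. For 1 HoxA gene that is not on the member list windows are counted but not reported singly. Some items are not reported here. Replicate numbers do not pair the libraries: over 28 pairs of groups the correlation of same-numbered deviations was −0.032 to 0.019, with 0 over 0.1. Alternatives were a minimum of 20 reads, other window sizes and CpG minimums, CpGs of the compared groups only, a coverage cap, a binomial model, Fisher's exact test for CpGs, a replicate block, other start region widths, read-weighted means and leaving out each library.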

Additional observations from a re-analysis of the deposited data

How the results depend on the processing

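Called Hox windows (13 in OP-mESC against YP-mESC, 4 in OP-S33Y_1 and 8 in OP-S33Y_2 against YP-mESC, 30 in both clones against OP-mESC, 0 in mESC shβcat against mESC shCtrl, 27 in EB shβcat against EB shCtrl, 47 in EB shCtrl and 67 in EB shβcat against their stem cells, and 35 in mESC shCtrl against YP-mESC) moved with the CpGs that were kept. With at least 20 reads per CpG, which left 39 Hox windows, they were 3, 0, 4, 11, 0, 14, 23, 33 and 12 in this order. With a difference over 10 points as a further condition they were 5, 2, 3, 4, 0, 9, 19, 38 and 7. With the CpGs of the compared groups only, which tests more windows, the count was 21 in OP-S33Y_2, 0 in EB shβcat against EB shCtrl, 78 and 113 in the differentiation comparisons and 54 in mESC shCtrl. The binomial model gave 7 in OP-S33Y_1, 17 in OP-S33Y_2 and 3 in mESC shβcat, and a minimum of 3 CpGs gave 1 in mESC shβcat. With the 4 EB libraries alone, added after seeing the data, EB shβcat against EB shCtrl gave 17. The cause was not tested. Counts in this section are of Hox regions or CpGs alone. For most settings the matching share over all windows, CpGs or genes is not given. A moved count therefore does not show whether the Hox clusters moved apart from the whole genome.

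Leaving out 1 library gave 8 to 10 windows in OP-mESC against YP-mESC (8 without OP-mESC replicate 2), 0 to 3 in OP-S33Y_1 (1, a rise, without YP-mESC replicate 2, and 0 without OP-S33Y_1 replicate 2), 3 to 6 in OP-S33Y_2 (3 without OP-S33Y_2 replicate 1), 12 to 26 in both clones against OP-mESC (16 and 12 without OP-mESC replicates 1 and 2) and 8 to 18 in EB shβcat against EB shCtrl (14 and 8 without EB shCtrl replicates 1 and 2, 13 without EB shβcat replicate 2). In the replicate block the counts were 13, 4, 8, 29, 0, 25, 46, 67 and 34, and 0 for the interaction, and no count of start regions moved. The replicate numbers share only a number.

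Single CpGs with at least 20 reads gave 1 call in OP-mESC, 1 in OP-S33Y_2, 5 in both clones against OP-mESC, 32 and 55 in the differentiation comparisons and 18 in mESC shCtrl. With the CpGs of the compared groups only there were 4 in OP-S33Y_2, 2 in mESC shβcat, 3 in EB shβcat against EB shCtrl, 131 and 217 on differentiation and 78 in mESC shCtrl. Fisher's exact test on summed reads gave 1 in OP-S33Y_1. Leaving out 1 library gave 3 to 5 in OP-mESC, 1 to 3 in OP-S33Y_2, 4 to 10 in both clones against OP-mESC, 1 to 2 in mESC shβcat and 1 to 3 in EB shβcat against EB shCtrl, where the 1 call without EB shCtrl replicate 2 was a fall.

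Start regions within 2 kb (36 members tested) gave 6 calls in OP-mESC, 1 in each clone against YP-mESC, 9 in both clones against OP-mESC, and 18 and 32 on differentiation. Within 250 bp (9 members tested) there were 0 in both clones, 0 in EB shβcat against EB shCtrl, 0 and 5 on differentiation and 4 in mESC shCtrl. Leaving out 1 library gave 2 to 4 in both clones (2 without OP-mESC replicate 2), 1 to 5 in EB shβcat against EB shCtrl (1 without EB shCtrl replicate 1, 2 without EB shβcat replicate 2 and 3 without EB shCtrl replicate 2) and 6 to 9 in EB shCtrl against mESC shCtrl (6 without mESC shCtrl replicate 1).

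The mean over the 4 clusters together kept its direction in each of these alternatives except in OP-S33Y_1 against YP-mESC, where the difference of 0.1 points became −0.03 read-weighted and −0.03 to 0.22 when 1 library was left out (−0.03 without YP-mESC replicate 1). Of single clusters, leaving out 1 library turned HoxA in OP-S33Y_1 against YP-mESC (−0.1 to 0.06), HoxB in OP-S33Y_2 (−0.2 to 0.54, and −0.2 read-weighted) and HoxC in mESC shβcat against mESC shCtrl (−0.29 to 1.05). Read-weighted, the difference was −2.34 points in OP-mESC, 1.07 in OP-S33Y_2, 2.86 in both clones against OP-mESC, 4.45 in EB shβcat against EB shCtrl, 5.9 in EB shCtrl against mESC shCtrl and 3.8 for the interaction. Over all CpGs covered in each library it was −2.31, 1.82, 3.27, 5.47 (EB shCtrl), 8.6 (EB shβcat) and 4.41 (mESC shCtrl), and with at least 20 reads −2.19 in OP-mESC, 2.98 in both clones, 0.57 in mESC shβcat, 4.79 in EB shβcat against EB shCtrl, 7.48 and 11.7 on differentiation and 4.22 for the interaction. Leaving out 1 library gave 3.01 to 3.55 for the interaction. OP-S33Y_1 against YP-mESC turned at all CpGs covered, to 0.16 points in HoxB and −0.57 in HoxC, and the window at chr6:52141001-52142000 near Hoxa4 turned to −0.16 in both clones against OP-mESC with at least 20 reads. Of 2051 alternatives for single called windows 372 lost the call, and of 373 for start regions 75 did.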
